A study of Mus musculus with 18 samples.

Results

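The effect of anti-hHer2 IgA on a pooled CRISPR knockout library was measured in Ba/F3 cells that lack ITPK1. Ba/F3 is a mouse pro-B cell line that depends on interleukin-3. The data are the sgRNA read counts of 8 of the 18 libraries of the series, namely those labelled ITPK1-KO that were recovered from mice: mice 1 to 4 received PBS (vehicle) and mice 5 to 8 received the antibody. The arm of each mouse was read from the Treatment column of the deposited sample legend, since the labels do not give it. All 76 target genes of the library, with 3 sgRNAs each, and its 24 non-targeting sgRNAs were examined, 252 sgRNAs in all. The 8 matching ITPK1-WT libraries of the same mice served only as a comparison.

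All cells were of the sensBa/F3 line. The ITPK1-KO population was a pool of 6 single-cell clones with ITPK1 deletions and without lentiviral integration, transduced once with the library and kept in culture for 10 days before use. ITPK1-KO cells were dyed with CellTrace yellow and ITPK1-WT cells with CellTrace violet, and the dye cannot be told apart from the genotype. Both were mixed in equal numbers, and every hCD89-transgenic mouse, whether given IgA or PBS, received 20000000 cells of this mixture in the peritoneum. After 16 h viable cells were sorted by dye, and the sgRNA cassettes were amplified from genomic DNA. The readout holds sgRNAs only, so neither the cell type nor the ITPK1 deletion can be checked in it. One transduced pool was shared by all mice, and a p-value therefore measures the spread between mice carrying that pool.

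CD89 is the human Fc receptor for IgA on neutrophils and other myeloid cells, through which these cells attack tumour cells coated with IgA. ITPK1 and IPMK are inositol phosphate kinases whose highly phosphorylated products are known to be needed by MLKL, the membrane-rupturing protein of necroptosis. Upstream, TNF receptors assemble a complex around the kinase RIPK1 that either keeps a cell alive or, when its ubiquitin chains are removed by deubiquitinases such as CYLD, gives way to caspase-8 or to RIPK3 and MLKL. In a screen of surviving cells, an sgRNA that is scarcer under IgA than under vehicle marks cells that were recovered less often with that target disrupted, relative to the rest of the library.

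The sgRNAs of the 5 genes with the largest called changes are given below, 5′ to 3′, with the 12 bases next to the PAM in capitals. The gene test sums the reads of these sgRNAs and does not ask whether they moved together. Their single changes are therefore given with each of these genes below.
Ripk1 sg-1: cagactgaGACACAGTCGAG
Ripk1 sg-2: cctgaattTGACCTGCTCGG
Ripk1 sg-3: aatccttgAGTACTGTCCAA
Commd4 sg-1: ctagagcaCACTCACCACGT
Commd4 sg-2: gaaactcaGCACCGCGACCG
Commd4 sg-3: atcactgtCGACACTATGCT
Tmem57 sg-1: atccttatACACCACAACGG
Tmem57 sg-2: gagcagcaAACGGTCGACAA
Tmem57 sg-3: agttccgaTTTGAATACCTG
Hspbap1 sg-1: aggaagagGACCACCTAGCG
Hspbap1 sg-2: gtgagatgTCTCCTCAACCT
Hspbap1 sg-3: ttatgtggATGCGACGCTCG
Cyld sg-1: agagaaccCCCCGTTCTATG
Cyld sg-2: gttggcaaTTACCAACTGTG
Cyld sg-3: gaggacctTTATTAGCGGAG

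Depth overlapped between the arms. Read totals ran from 317564 to 704992 in vehicle and from 551398 to 694028 in IgA libraries, and the median sgRNA had 1326 to 2931 reads. From each vehicle mouse 2000000 ITPK1-KO cells had been sorted, against 1670000, 2000000, 1500000 and 955000 from IgA mice 5 to 8; the part of this gap in the results was not tested. The file names of the reads carry 2 series of sample numbers, of which one holds mice 1 to 5 and the other mice 6 to 8. Abundance is given below as normalised CPM (read counts scaled to library size with TMM factors), summed over the sgRNAs of a gene, and a change as the log2 fold change of IgA over vehicle. A gene or sgRNA was called at an adjusted p under 0.05 in edgeR's quasi-likelihood test.

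Few genes changed under IgA in cells without ITPK1, and the largest changes were modest. Of 76 genes, 10 were called (13.2%), 6 higher (7.89%) and 4 lower (5.26%). The lower genes were led by Ripk1, the kinase of the TNF receptor complex, and Commd4, a COMM domain protein of endosomal recycling. The higher genes were led by Hspbap1, whose product binds the small heat shock protein Hsp27, and by Cyld. At the other end, 56 genes stayed within 0.05 of no change on the log2 scale and 67 within 0.1. The arms did not overlap for 16 of 76 genes (21.1%), 11 higher and 5 lower under IgA. Relative to the non-targeting sgRNAs as the scale, 15 genes were called, 12 higher and 3 lower, and 9 of the 10 genes above were among them.

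**Figure D1:**
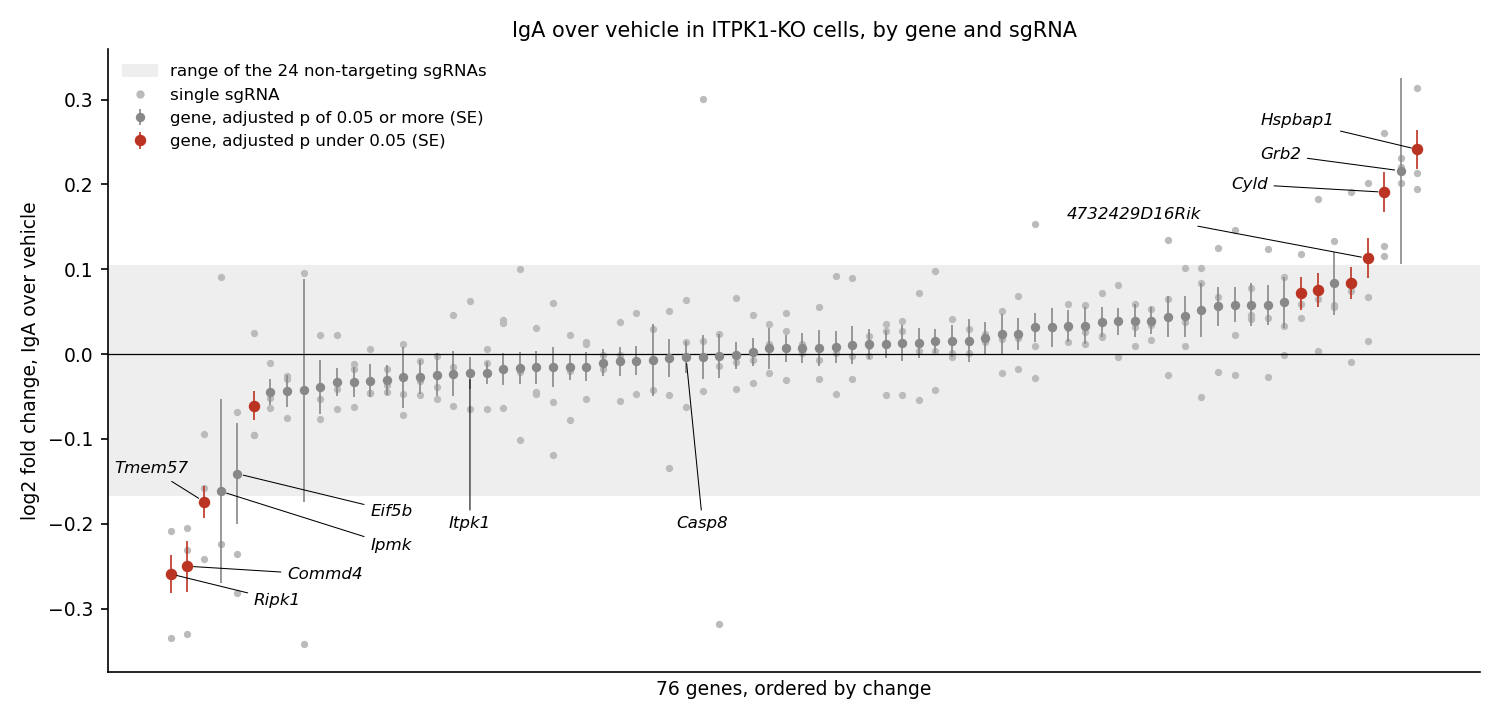
Log2 fold change of IgA over vehicle in ITPK1-KO cells for all 76 genes in order of their change (large points with SE, red where the adjusted p is under 0.05), with each sgRNA as a small point and the range of the 24 non-targeting sgRNAs in grey. Ripk1, Commd4 and Tmem57 lie at the lower end and Hspbap1 and Cyld at the upper end, while Grb2, Ipmk and Eif5b have long error bars and were not called.

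Ripk1 showed the largest fall. Its sgRNAs stood at 13525, 13086, 12480 and 13194 CPM in vehicle mice 1 to 4 and at 10867, 10782, 11283 and 10842 CPM in IgA mice 5 to 8. Every IgA mouse lay below every vehicle mouse. The mean went from 13072 ± 436 to 10943 ± 229 CPM (SD, n = 4 mice per arm), a fold of 0.836 over vehicle (log2 −0.26, SE 0.022, edgeR adjusted p = 4.06e-08). All 3 sgRNAs were called, and none of them overlapped between arms. The first, sg-1, fell by 0.33 on the log2 scale, sg-2 by 0.26 and sg-3 by 0.21.

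Cyld, the deubiquitinase that trims ubiquitin chains from RIPK1, moved the other way. Its sgRNAs stood at 9246, 9297, 9137 and 9009 CPM in vehicle mice and at 10128, 10272, 10822 and 10648 CPM in IgA mice. The arms were again separate, with all IgA mice higher. The mean rose from 9172 ± 128 to 10467 ± 322 CPM (SD, n = 4 each), or 1.14-fold (0.19, SE 0.024, edgeR adjusted p = 2.84e-06). The rise was largest for sg-1 (0.26) and smaller for sg-3 (0.13), both called, while the least abundant sgRNA, sg-2, stood at 0.12 with overlapping arms (edgeR adjusted p = 0.171). Without sg-1 the gene stood at 0.12 and was still called (edgeR adjusted p = 0.0181).

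No other member of the TNF receptor complex was called, so of its 8 genes in the library 1 rose, 1 fell and 6 did not pass, beside 13.2% called of all 76 genes. At an unadjusted p under 0.05 there were 3 of 8, and 21 of 76. The median was 0.015, against 0.0071 for all genes. The receptor Tnfrsf1a stood at 0.058 (SE 0.024, edgeR adjusted p = 0.126), and was called on the non-targeting scale (0.073) and without sg-3 (0.080). Tnfrsf1b ran from 10548 to 10869 CPM in vehicle mice and from 10914 to 11174 CPM in IgA mice, so its arms were separate, at a change of 0.033 (SE 0.019, edgeR adjusted p = 0.234). Spata2, the adaptor that brings CYLD to the complex, was at 0.052 (SE 0.032, edgeR adjusted p = 0.268). Birc2, a ubiquitin ligase of RIPK1, was at −0.018 (SE 0.019). Each of these changes was smaller than those of Ripk1 and Cyld, and none passed in the reported fit. The genes that carry the death signal onward were near 0 as well. Fadd, the adaptor of caspase-8, was at −0.038 (95% interval −0.11 to 0.029). Casp8 had 12240, 12286, 12471 and 12145 CPM in vehicle mice and 12010, 12022, 12468 and 12472 CPM in IgA mice, with overlapping arms. Its change was −0.0039, with a 95% interval from −0.043 to 0.035.

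Of 7 further receptors of the TNF superfamily 1 was called, a share near the 13.2% of all genes, and the median was 0.033. Ltbr, the lymphotoxin receptor, rose by 0.076 (SE 0.020, edgeR adjusted p = 0.0116), from between 10388 and 10752 CPM in vehicle mice to between 11007 and 11379 CPM in IgA mice. That rise came from sg-3 (0.18), as sg-1 stood at 0.065 and sg-2 at 0.0032, and without sg-3 the gene was at 0.025 and not called (edgeR adjusted p = 0.505). Tnfrsf10b, the TRAIL receptor, was at 0.058 (edgeR adjusted p = 0.0679), with 1 sgRNA called, sg-2 at 0.15. It passed when scaled to the non-targeting sgRNAs (0.073), without mouse 1 (0.073), and without sg-1 (0.077) or sg-3 (0.088). Fas was at −0.015 (SE 0.017), the CD30 gene Tnfrsf8 at 0.038 (called without mouse 3, at 0.052) and Cd27 at −0.0044. The death domain receptors Tnfrsf21 and Tnfrsf25 stood at 0.033 and −0.015.

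The executing machinery of necroptosis had no call among its 4 genes (median 0.015) with edgeR under TMM scaling. DESeq2's Wald test and limma on mean log2 values gave no call either. At an unadjusted p under 0.05 in edgeR there was 1 of 4, and 21 of 76 in the whole library. Of all 76 genes 13.2% were called, and for 4 genes no call is near that share. Ripk3, the kinase that activates MLKL, was at 0.058 (SE 0.025, edgeR adjusted p = 0.136), and was called at 0.074 when scaled to the non-targeting sgRNAs (edgeR adjusted p = 0.0408). Mlkl itself was at 0.013, with a 95% interval from −0.031 to 0.057. The nucleic acid sensor Zbp1 was at 0.013 and the mitochondrial phosphatase Pgam5 at 0.016. A fall of the size seen for Ripk1 lies outside the intervals of all 4.

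Itpk1 is the gene already deleted in these cells, and no change of its sgRNAs was detected. They stood at 12341, 12526, 12688 and 12314 CPM in vehicle mice and at 12570, 11990, 12300 and 12186 CPM in IgA mice. The arms overlapped, and the change was −0.023 (95% interval −0.062 to 0.017, edgeR adjusted p = 0.455). The 3 sgRNAs lay at −0.065, −0.023 and 0.063. For Ipmk, the other inositol phosphate kinase of the library, there were few reads: sg-2 had 0 to 4 reads per library and did not reach the minimum mean of 10 reads, and sg-3 had 34 to 74. Summed over sg-1 and sg-3, Ipmk had 508, 417, 459 and 523 CPM in vehicle mice and 415, 433, 392 and 480 CPM in IgA mice. The arms overlapped, and its change of −0.16 had a 95% interval from −0.39 to 0.066 (edgeR adjusted p = 0.323).

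Outside the death pathways, 3 genes moved about as far as those of the TNF complex. Commd4 sgRNAs stood at 11835, 10908, 11594 and 11065 CPM in vehicle mice and at 9187, 10095, 9514 and 9270 CPM in IgA mice. The arms did not overlap, although mouse 6 was nearer to the vehicle range than the other IgA mice. The level fell to 0.841 of vehicle (−0.25, SE 0.030, edgeR adjusted p = 1.73e-06). All 3 sgRNAs were called, with sg-1 at −0.33, sg-2 at −0.20 and sg-3 at −0.23. Between arms sg-1 and sg-2 were separate and sg-3 was not, because mouse 6 with 3513 CPM lay above vehicle mice 2 and 4 with 3474 and 3438 CPM.

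Tmem57, which encodes macoilin, a membrane protein of the endoplasmic reticulum, went from 12446, 12266, 12477 and 12862 CPM in vehicle mice to 11058, 10974, 11209 and 11171 CPM in IgA mice. The IgA mice lay close together and below all vehicle mice. The level fell to 0.886 of vehicle (−0.17, SE 0.019, edgeR adjusted p = 5.59e-07). Of its sgRNAs, sg-2 (−0.24) and sg-3 (−0.16) were called and sg-1 (−0.094) was not (edgeR adjusted p = 0.142).

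Hspbap1 had the largest rise. Its sgRNAs stood at 11268, 11219, 11211 and 11057 CPM in vehicle mice and at 13200, 12614, 13212 and 13895 CPM in IgA mice. The vehicle mice were within a narrow band, and all IgA mice lay above it. The rise was 1.18-fold (0.24, SE 0.023, edgeR adjusted p = 1.29e-07), and all 3 sgRNAs were called with separate arms, sg-1 at 0.31, sg-2 at 0.19 and sg-3 at 0.21. Thus Ripk1, Commd4 and Hspbap1 were the 3 genes of the library with every sgRNA called.

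**Figure D2:**
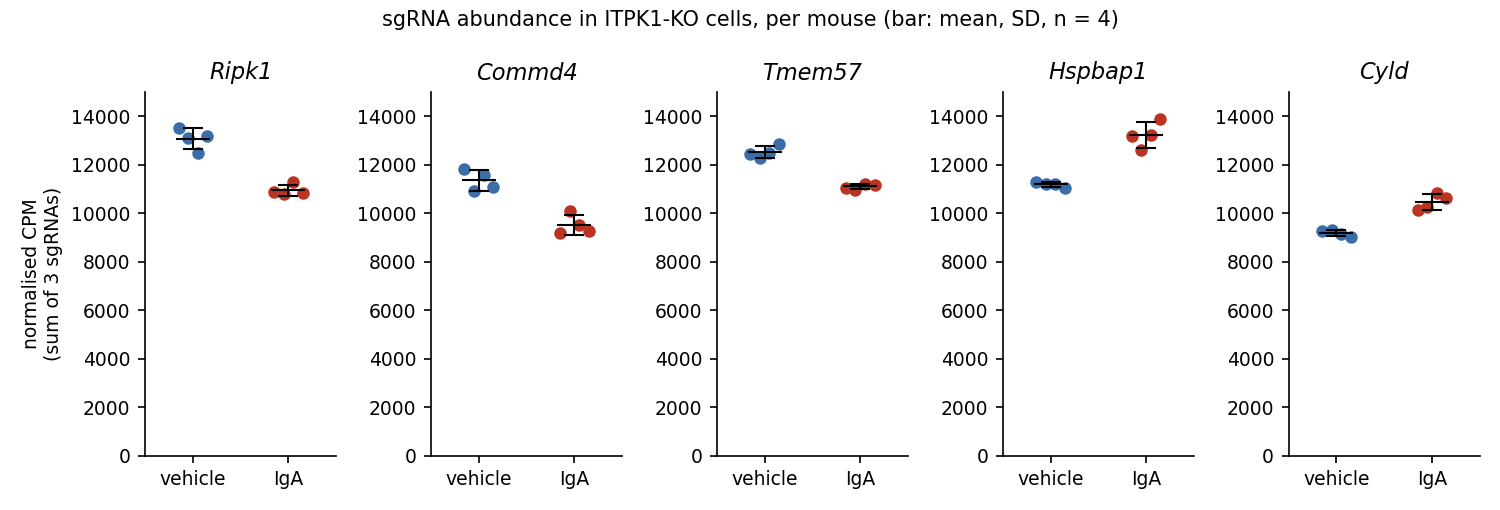
Normalised CPM, summed over 3 sgRNAs, in ITPK1-KO cells of each vehicle mouse (blue) and IgA mouse (red), with mean and SD over 4 mice. For each of the 5 genes the arms do not overlap: Ripk1, Commd4 and Tmem57 are lower and Hspbap1 and Cyld higher under IgA.

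Apoptosis through mitochondria was represented by 15 genes, of which none was called by edgeR under TMM scaling, by DESeq2's Wald test or by limma on mean log2 values of the sgRNAs, and 3 were at an unadjusted p under 0.05 in edgeR. Over all 76 genes, 13.2% were called and 21 were at an unadjusted p under 0.05 in edgeR. The median of the 15 genes was 0.0069. The pore proteins Bax and Bak1 stood at 0.0069 (SE 0.016) and −0.016 (SE 0.019), and Bid, which links caspase-8 to the mitochondrial pores, at −0.031 (SE 0.018). The inducers Bbc3 (PUMA) and Bcl2l11 (BIM) were at 0.031 and 0.039, Bmf at 0.0085 and Bad at −0.0031. The initiator caspase Casp9 was at 0.012. The arms were separate for the apoptosome scaffold APAF1 (0.039) and, lower under IgA, for CASP2 (−0.045, edgeR adjusted p = 0.0668). Both were changes of under 0.05 that did not pass. APAF1 was called on the non-targeting scale (0.053), and CASP2 when scaled to total counts (−0.046), without mouse 1 (−0.050) or 5 (−0.052), without sg-1 (−0.058) and with a minimum mean of 500 reads (−0.047).

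In the remaining death pathways changes were small too. None of 4 pyroptosis genes was called by edgeR under TMM scaling or by DESeq2's Wald test (median 0.025). The pore protein Gsdmd stood at 0.019. Casp11, the sensor of intracellular lipopolysaccharide, was at 0.056 with separate arms (edgeR adjusted p = 0.126), was the 1 gene of the list at an unadjusted p under 0.05, and passed in limma on mean log2 values (0.058), on the non-targeting scale (0.071) and without sg-1 (0.087). Casp12 was at 0.031 and passed without sg-2 (0.068). None of 3 lipid enzymes of ferroptosis was called by edgeR with all mice, DESeq2 or limma (median −0.016), with Acsl4 at −0.0071, Alox12 at −0.016 and Alox15 at −0.033, called without mouse 1 (−0.049). The 3 interferon receptor subunits had no call by these tools either (median 0.024), with Ifnar1 at 0.061 (SE 0.030), called without mouse 1 (0.083). No gene of these last 2 lists had an unadjusted p under 0.05 in edgeR, against 21 of 76 in the whole library. The absence of edgeR calls in these short lists stands beside 13.2% called of all 76 genes.

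The 3 targets listed as growth-essential had fewer reads than most targets, and their values are loose. All libraries were taken after culture, so whether these sgRNAs were lost in culture was not tested. Grb2, an adaptor of growth factor receptors, had a change of 0.22, nearly that of Hspbap1, but with an SE of 0.11 and a 95% interval from −0.014 to 0.45 (edgeR adjusted p = 0.195). It had 628, 483, 581 and 540 CPM in vehicle and 564, 589, 672 and 757 CPM in IgA mice, which overlap. The translation factor Eif5b went from 1860, 1996, 1907 and 1839 CPM to 1767, 1720, 1821 and 1566 CPM. Its arms were separate, all 3 sgRNAs were lower under IgA, and the change was −0.14 (SE 0.059, edgeR adjusted p = 0.126). On the mean of the log2 values of its sgRNAs, which gives scarce sgRNAs equal weight, it was −0.21 and passed in limma (adjusted p = 0.0113), as it did in edgeR without sg-1 (−0.27). Txnl4b, a splicing protein, was at −0.043 with a 95% interval from −0.32 to 0.23.

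The smaller calls each leaned on 1 or 2 sgRNAs. 4732429D16Rik, listed by RefSeq as Cd300ld, a receptor of myeloid cells, rose by 0.11 (SE 0.023, edgeR adjusted p = 0.00148), with sg-2 at 0.20 and the others at 0.015 and 0.067. Sycp2, a synaptonemal complex gene of meiosis, rose by 0.084 (SE 0.019, edgeR adjusted p = 0.00377), with sg-2 at 0.19, sg-3 at 0.074 and sg-1 at −0.0095. Without sg-2, the former was at 0.039 and the latter at 0.038, and neither was called. Kcnip1, a potassium channel partner of neurons, rose by 0.072 (SE 0.019, edgeR adjusted p = 0.0122), with its sgRNAs at 0.12, 0.059 and 0.042. The call of Kcnip1 was lost without mouse 4 (edgeR adjusted p = 0.0585) and that of Ltbr without mouse 2 (edgeR adjusted p = 0.0528).

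At the level of single sgRNAs, 26 of 251 were called (10.4%), 14 higher (5.58%) and 12 lower (4.78%). Scaled to the non-targeting sgRNAs the count was 25, with 17 higher and 8 lower. Of the 26, 13 targeted Ripk1, Commd4, Tmem57, Hspbap1 or Cyld. Among the 24 non-targeting sgRNAs 1 was called, at −0.085. As a group these controls had a median of −0.012 and a range from −0.17 to 0.10. Each of the 3 Ripk1 sgRNAs and the 3 Commd4 sgRNAs lay below that range and each of the 3 Hspbap1 sgRNAs above it. The 3 Cyld sgRNAs lay above it too, although 1 of them was not called. Of Tmem57, sg-2 lay below the range and the others within it. Single sgRNAs were also called for genes that were not: Casp12 sg-3 (0.15), Foxi1 sg-1 (0.13), Tnfrsf1a sg-2 (0.12), Bmf sg-2 (0.092) and Bak1 sg-2 (−0.10), beside the sgRNA of Tnfrsf10b above. Against the fall of Bak1 sg-2, Bak1 sg-1 stood at 0.10, with separate arms but not called (edgeR adjusted p = 0.133). Of the 75 genes with 3 sgRNAs tested, all 3 moved in 1 direction for 29, and for 8 of the 10 called genes. The share of G and C bases moved weakly with the change, with a Pearson's r of −0.18 across sgRNAs, which share their libraries. Its median was 42.5% in sgRNAs called higher and 55% in those called lower, against 50% in all, and its part in the results was not tested.

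In the authors' deposited table for the same comparison, scored with MAGeCK, 12 of 252 sgRNAs had an FDR under 0.05, 6 higher and 6 lower, and all 12 were also called here. The authors' deposited table gave Hspbap1 sg-1 a log2 fold change of 0.33 (FDR 4.84e-06) and Cyld sg-1 0.28 (FDR 3.30e-05). In the authors' deposited table the Ripk1 sgRNAs sg-1, sg-2 and sg-3 stood at −0.32, −0.26 and −0.19, with FDR values of 0.00184, 0.00184 and 0.0481. Other sgRNAs called here did not pass there, among 26 called here in all. Of the 5 leading genes these were Commd4 sg-2 (−0.18, MAGeCK FDR 0.132), Tmem57 sg-3 (−0.14, MAGeCK FDR 0.509) and Cyld sg-3 (0.13, MAGeCK FDR 0.595).

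In ITPK1-WT cells of the same mice, 29 of 76 genes were called (38.2%). Of the 10 genes called in ITPK1-KO cells 9 were called there too, all in the same direction, which is 90% of the ITPK1-KO and 31.0% of the ITPK1-WT calls. Both sets of libraries came from the same mice. The summed non-targeting sgRNAs stood at −0.052 (SE 0.013) in ITPK1-WT and at −0.014 (SE 0.0084) in ITPK1-KO cells. The ITPK1-WT count is given under TMM scaling only, and the part of scaling in the gap between the 2 counts was not tested. Whether IgA acted differently in the backgrounds was tested as the interaction of background and arm over 16 libraries, in which 5 of 76 genes passed (6.58%): Itpk1, Ipmk, Commd4, Ripk1 and Zbp1. The same 5 passed with the mouse as a block, which also takes up the series of sample numbers, since both libraries of a mouse carry the same one.

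Ripk1 fell further in the cells without ITPK1. Its change was −0.26 in ITPK1-KO and −0.072 in ITPK1-WT cells, a difference of −0.19 (SE 0.032, 95% interval −0.26 to −0.13, edgeR adjusted p = 1.03e-05). Commd4 went the opposite way, with −0.25 in ITPK1-KO against −0.51 in ITPK1-WT cells, a difference of 0.26 (SE 0.041, edgeR adjusted p = 7.05e-06). The rises of the inositol kinases were found in ITPK1-WT cells, at 0.45 for Itpk1 and 0.44 for Ipmk. The differences were −0.48 for Itpk1 (SE 0.047, edgeR adjusted p = 1.62e-10) and −0.62 for Ipmk (SE 0.12, edgeR adjusted p = 0.000219), the latter with the low reads given above. Zbp1 was at 0.013 against −0.083 (difference 0.090, SE 0.025, edgeR adjusted p = 0.0151), and lost its call without mouse 2, 3, 4, 5 or 8 and when scaled to the non-targeting sgRNAs (0.059, edgeR adjusted p = 0.186).

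For the other leading genes no difference between backgrounds was detected. Hspbap1 was at 0.24 and 0.22 (difference 0.013, 95% interval −0.049 to 0.075). Cyld was at 0.19 and 0.13 (difference 0.054, 95% interval −0.016 to 0.13, edgeR adjusted p = 0.523). Tmem57 was at −0.17 and −0.096 (difference −0.084, 95% interval −0.15 to −0.020, edgeR adjusted p = 0.147 over all genes). Fadd was called in ITPK1-WT cells (−0.14) and not in ITPK1-KO cells, but the difference of 0.097 did not pass (edgeR adjusted p = 0.300).

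**Figure D3:**
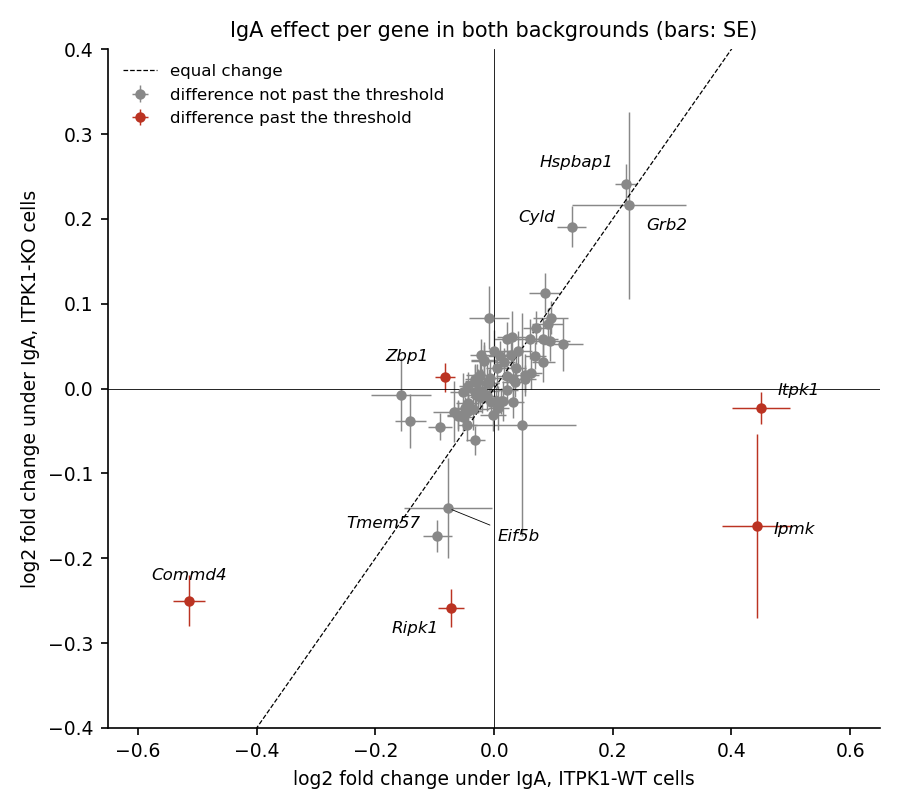
Log2 fold change of IgA over vehicle per gene in ITPK1-WT cells (horizontal) and ITPK1-KO cells (vertical), with SE bars and a dashed line of equal change. Hspbap1 lies near the line, whereas Itpk1, Ipmk, Commd4, Ripk1 and Zbp1, in red, passed the test of the difference.

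Each arm was also set beside the single ITPK1-KO library sampled before injection. Here values are means of the log2 ratios of the sgRNAs of a gene, relative to the non-targeting median. Ripk1 was near its start in vehicle mice, at −0.032 ± 0.041, and at −0.29 ± 0.038 in IgA mice (SD, n = 4). Tmem57 lay slightly above its start in vehicle mice, at 0.051 ± 0.012, and below it in IgA mice, at −0.11 ± 0.020. Commd4 was at −0.090 ± 0.065 and −0.34 ± 0.060. The enriched genes crossed the start in the other direction. Hspbap1 went from −0.058 ± 0.029 in vehicle to 0.19 ± 0.060 in IgA mice, and Cyld from −0.071 ± 0.036 to 0.10 ± 0.059. Itpk1 stood at 0.079 ± 0.022 and 0.077 ± 0.027, alike in both arms. Over the library, 3 genes in vehicle and 8 in IgA mice lay more than 0.15 from their start. The 3 were all among the 8, such as Acsl4 (−0.24 in vehicle, −0.25 in IgA mice) and Txnl4b (−0.38 and −0.41). Of the 8, Ripk1, Commd4 and Hspbap1 were called between the arms, and the rest, Eif5b and Grb2 included, were not. The starting library has no replicate and carries the series of sample numbers of mice 6 to 8, so in vehicle mice the series and the change from the start cannot be told apart.

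**Figure D4:**
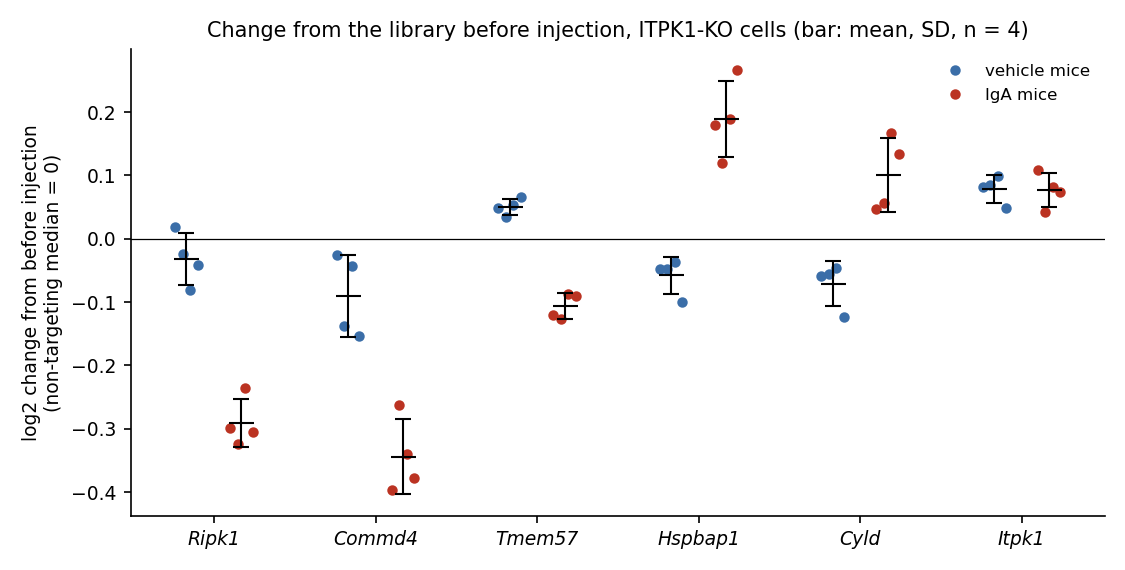
Log2 change from the library before injection in ITPK1-KO cells for each vehicle mouse (blue) and IgA mouse (red), with mean and SD over 4 mice and the non-targeting median at 0. Vehicle mice lie between −0.15 and 0.10 for the genes shown, IgA mice lie below them for Ripk1, Commd4 and Tmem57 and above them for Hspbap1 and Cyld, and the arms overlap for Itpk1.

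The 5 leading calls were stable across the fits run. Ripk1, Commd4, Tmem57, Hspbap1 and Cyld were called in each of the 8 fits that left out 1 mouse and in all 12 other settings. With the series of sample numbers as a covariate, so that only mouse 5 bears on the contrast with vehicle, these 5 were the genes called, at −0.27 for Ripk1, −0.30 for Commd4, −0.18 for Tmem57, 0.24 for Hspbap1 and 0.14 for Cyld.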

How the data were processed

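The authors deposited raw counts of reads for each sgRNA. The series' design text says that reads were matched to the library without mismatches and scored with MAGeCK 0.5.6; aligner and genome build are not given in the sources used here. In the authors' deposited MAGeCK table each sgRNA has a log2 fold change with its p-value and FDR. The deposited legend gives the arm and, in another unit (cells), the cells sorted. Without molecular identifiers, read depth gives only a lower bound of the error.

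A minimum mean of 10 reads kept 251 of 252 sgRNAs. Counts were summed per gene, scaled by TMM and tested in R 4.3.3 with edgeR 4.0.16 (glmQLFit, glmQLFTest, arm as the only term) with Benjamini-Hochberg adjustment over genes or sgRNAs and a threshold of 0.05. The summed non-targeting sgRNAs were not adjusted over. The biological coefficient of variation was 1.73% for genes. The test of the difference between backgrounds used all 16 recovered libraries without a mouse term. Mouse numbers pair the libraries of both backgrounds (correlation of their deviations from −0.10 to 0.25), and vehicle and IgA mice share no number. No 2 libraries of an arm were duplicates (chi-square per degree of freedom 2.28 to 3.35 over 12 pairs). Changes from before injection used 0.5 added reads. The procedure was tested on simulated data, with a spread equal to the biological coefficient of variation of the sgRNAs here (2.83%). In them all sgRNAs of a gene shifted alike and no mouse or series effect was included, so such effects were not tested. limma 3.58.1 and DESeq2 1.42.0 served as alternatives, beside other scalings, filters, thinning, the series of sample numbers as covariate, and each mouse or sgRNA left out.

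Named were genes past the threshold, the 5 highest and 5 lowest with all sgRNAs in 1 direction, called sgRNAs of other genes, and members of gene lists. Members and lists were chosen with earlier results of these data known. Some genes are not reported here, though counts include them. Gene names are those of the files, and all 76 were matched to RefSeq.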

Additional observations from a re-analysis of the deposited data

Results flagged for a closer look

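In 3 of the 28 groups of 4 mice examined, 1 mouse stood apart from the other 3 by Dixon's criterion, which chance meets in about 1 of 20 groups. Among IgA mice, mouse 7 was highest for Ripk1 with 11283 CPM, and mouse 8 was highest for Ltbr with 11379 CPM and for Kcnip1 with 11938 CPM. In mouse 7 Ripk1 was thus nearer to the vehicle range than in the other IgA mice, yet below all vehicle mice. Mouse 8 was the IgA mouse with the fewest sorted ITPK1-KO cells (955000).

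The effect of IgA differed between backgrounds for 5 genes (ITPK1-KO minus ITPK1-WT, edgeR interaction). The differences were −0.48 for Itpk1, −0.62 for Ipmk, −0.19 for Ripk1, 0.26 for Commd4 and 0.090 for Zbp1. For all but Zbp1 the difference was called in each of the 8 fits that left out 1 mouse and in the 4 other settings run. The values over all settings ran from −0.22 to −0.17 for Ripk1, from 0.23 to 0.28 for Commd4, from −0.51 to −0.44 for Itpk1 and from −0.69 to −0.53 for Ipmk.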

How the results depend on the processing

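The counts of calls moved by more than 1.5 times with the series of sample numbers as a covariate: 5 genes (2 higher, 3 lower, all among the 10) and 15 sgRNAs were called, with mouse 5 as the only IgA mouse of its series. Scaled to the non-targeting sgRNAs, 15 genes (12 higher, 3 lower) and 25 sgRNAs (17 higher, 8 lower) were called. With 1 mouse left out, 9 to 15 genes, 19 to 31 sgRNAs and, for the difference between backgrounds, 4 to 6 genes were called. The paired fit with the mouse as a block called 5 genes for that difference, as did the fit without it; no block was possible between vehicle and IgA mice. With libraries thinned to the smallest, 7 genes were called. None of the 10 called genes turned its direction in any setting run. Genes that were not called did: 68 values of 28 genes lay on the other side of 0 from the reported value, and none of these values passed the threshold. Ipmk ran from −0.23 to 0.092, Itpk1 from −0.048 to 0.013, Birc2 from −0.043 to 0.040 and Bak1 from −0.058 to 0.027. Of the log2 fold changes of single genes under alternatives, 1112 kept their side of the threshold, 24 passed it newly and 21 lost it. Scarce sgRNAs limited Ipmk, Grb2 and Txnl4b most.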
